A study of Pinus pinaster with 66 samples.

Results

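The 150 array spots described here stood out in maritime pine (Pinus pinaster) by their level in the newest needles. It lay above that of the older needles in May, and by more than in any later month sampled. They were chosen on measured values. For each month from May to November, the group mean of Whorl 0, the needles formed in the year of harvest, was set against the mean of the group means of Whorls 1 to 3, the needles of the 3 preceding years. The members are the spots with the largest difference in May minus the highest of the differences of July, September and November, called here the excess of May. Only spots with a value on all 65 arrays used could be chosen, and spots that the study names were left out. Of 8208 spots, 5823 had a value on all 65 arrays and 5788 could be chosen, so the members are 2.59% of the spots that could be chosen and 1.83% of all spots.

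Needles were taken through 1 year from 6 field-grown trees aged 20 to 25 years, whose RNA was pooled 2 by 2 before labelling, which gave 3 replicates for each month and whorl. Whorl 0 was harvested in May, July, September and November, and Whorls 1, 2 and 3 in those months and in January and March, so that there are 22 groups. Every array set Cy3-labelled RNA of 1 group against the same Cy5-labelled pool of January RNA, and the design has no treated group. Values are log ratios to that pool, treated as log2, although the sources do not name the base, and positive values were taken to mean a higher transcript level than in the pool. Replicate 2 of November Whorl 2 was not used, which leaves that group with 2 arrays. The same trees were sampled from month to month. A replicate number was taken to mark the same pool of trees in every month and whorl, which the labels do not state. The main tests took every array as independent. Where a comparison of months joins whorls, its p-values and standard errors can be too small as a measure of the spread between the 3 pools. No p-value measures the spread between stands of trees. An array had a value for between 6519 and 8076 spots and each mean rests on 3 arrays or, in November Whorl 2, on 2.

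A pine needle grows from its base inside the short shoot, and the young needle divides, expands, builds walls and cuticle and assembles its chloroplasts before it matures. Maritime pine keeps needles of several years side by side, so a new whorl that expands in spring can be compared with needles on the same branches that have completed their growth. Growing plant organs rely on protein synthesis and folding, on membrane lipids and on enzymes of the cell wall. The deposited values pair no spot with a gene and no annotation was used here, so the members are named by their spots, and gene descriptions are given only for the spots that the study itself names.

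In May the newest needles were above the older needles in every member, as the choice requires. The May difference ran from 0.30 to 2.14 with a median of 0.92. It reached at least 0.5 in 143 of the 150 members, against 9.65% of all spots with a value on every array. The median over all spots with a value on every array was -0.04 in May. July gave a median difference of 0.16 over the members, against -0.04 over all spots, September one of 0.13, against -0.01, and November one of 0.12, against -0.02. The excess of May ran from 0.48 to 1.53 with a median of 0.64. These values chose the members and are a description without a test.

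**Figure D1:**
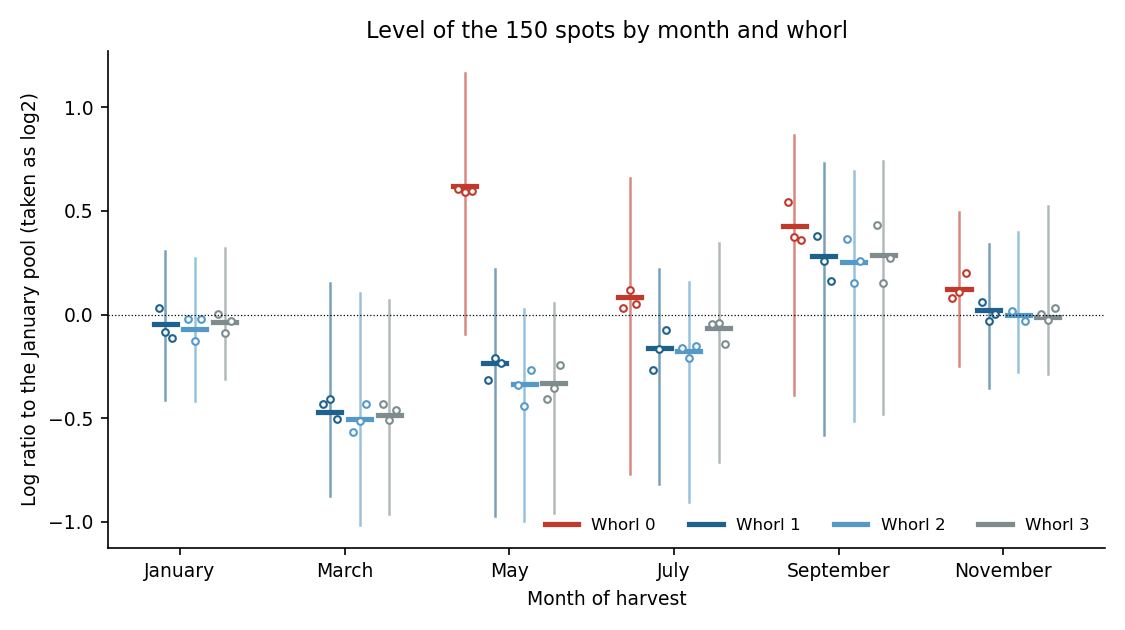
The plot gives the log ratio to the January pool (log2) of the 150 spots by month of harvest and whorl. Thick bars are medians of the group means over the spots, thin lines run from the 10th to the 90th percentile of the spots, and open circles are the medians of single arrays (3 a group, 2 in November Whorl 2). The 3 May Whorl 0 arrays lie between 0.59 and 0.61 and the 9 older May arrays between -0.44 and -0.21.

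The members lay above the January pool in the new May needles and below it in the older ones. The median of the members in May Whorl 0 was 0.61, 0.59 and 0.60 on the 3 arrays. It was -0.32, -0.21 and -0.24 on the arrays of May Whorl 1, -0.34, -0.44 and -0.27 on those of Whorl 2, and -0.41, -0.35 and -0.24 on those of Whorl 3. The arrays of the newest needles were close together and did not overlap with those of the older needles. May Whorl 0 lay above the January mean of Whorls 1 to 3 in 135 members, with a median of 0.59 and a range from -0.997 to 1.73. The older May needles lay below their January mean in 121 members, with a median of -0.28, and in 53 members this distance was larger than that of Whorl 0 above January. All 3 May Whorl 0 arrays lay above all 9 older May arrays in 142 of the 150 members, which held for 20.5% of the spots that could be chosen. Nothing is read from that count, since these May values chose the members.

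The working name of the set, spots high only in expanding May needles, did not hold for the level, nor for the difference between whorls in every member. The difference was still at least 0.5 in 20 members in July, in 5 in September and in 6 in November. May Whorl 0 was the highest of the 22 groups in 63 members. A September group was the highest in 49 members, September Whorl 0 alone in 41, and a November group in 23. The remaining maxima were in January for 8 members, in July for 4 and in another May group or in March for 3. The share over all spots was not counted for these maxima. Among the 4 groups of Whorl 0, May was the highest in 80 members (53.3%), against 19.3% of all spots that could be chosen. September was the highest in 47 (31.3%), against 24.9%. In 36 members all 3 May Whorl 0 arrays lay above the 62 other arrays, as in 2.99% of the spots that could be chosen, again on values that entered the choice. In 20 members (13.3%) May Whorl 0 was at or below 0, against 57.2% of the spots that could be chosen.

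In September the median of the members was high in needles of all ages and differed little between whorls. Their median was 0.43 in September Whorl 0, against 0.28, 0.25 and 0.29 in Whorls 1, 2 and 3. In July the median was 0.09 in Whorl 0, against -0.16, -0.18 and -0.07 in Whorls 1, 2 and 3. In November the medians lay close to the January pool, at 0.12 in Whorl 0, against 0.02, -0.0012 and -0.01 in Whorls 1, 2 and 3. The older needles, Whorls 1 to 3 together, had medians of -0.03 (January), -0.49 (March), -0.33 (May), -0.15 (July), 0.28 (September) and -0.0049 (November). The lowest of the 22 groups was a March group in 72 members (48%), against 16.9% of the spots that could be chosen, and an older May group in 49 (32.7%), against 11.7%.

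**Figure D2:**
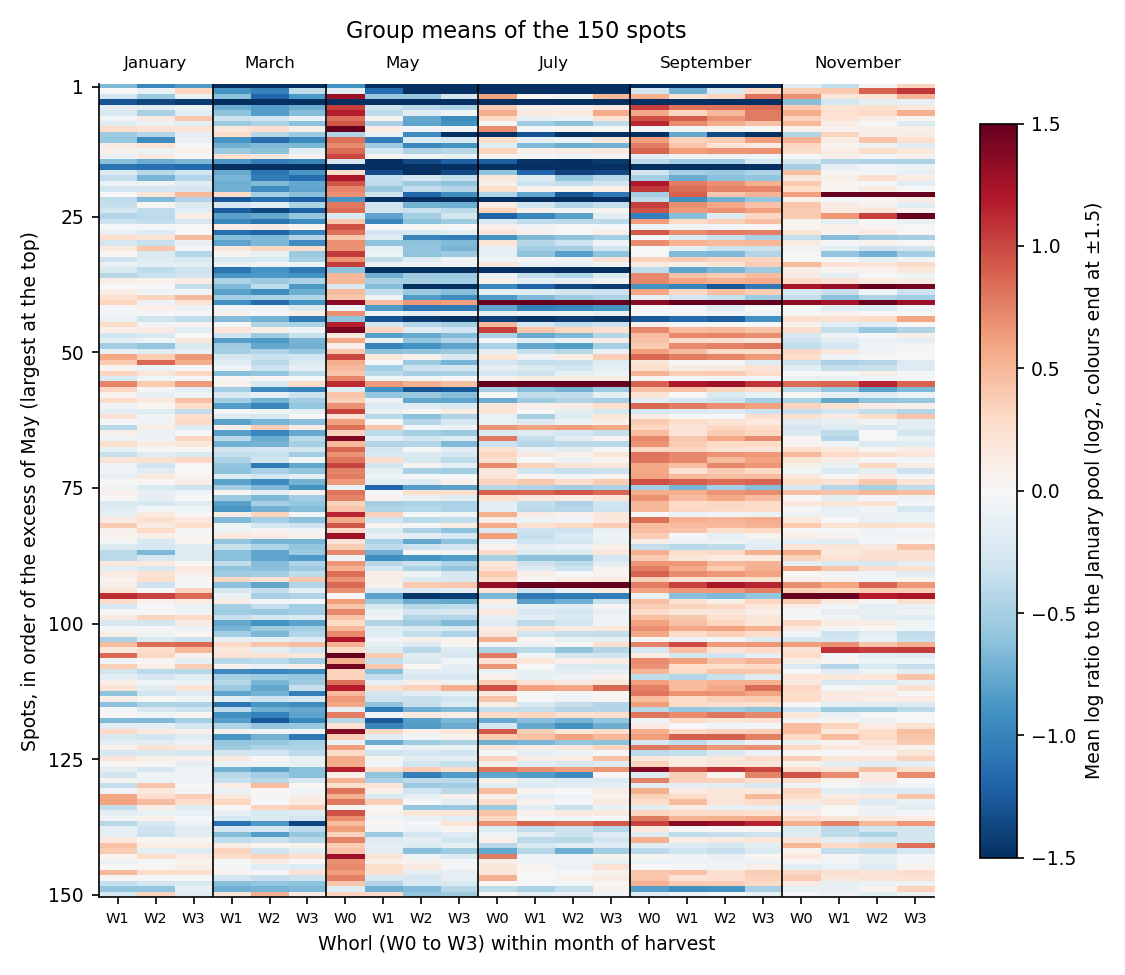
Each row is 1 of the 150 spots, in order of the excess of May, and each column 1 of the 22 groups, with the mean log ratio to the January pool (log2) as colour. May Whorl 0 is the warm column beside cold March columns and cold older May columns, and September is warm in all 4 whorls for many rows.

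The pair of spots with the largest excess were very low in the older May needles, while in the new ones they were still below the January pool. Spot Q5P21 had the largest excess, 1.53. Its log ratios in May Whorl 0 were -1.02, -0.92 and -0.80, against -2.90, -3.25 and -3.00 in Whorl 1, -3.15, -3.11 and -3.32 in Whorl 2 and -2.99, -3.02 and -2.73 in Whorl 3. The new needles were below the January pool on every array and above all older needles of May. In July it was at -2.35, -2.41 and -2.93 in Whorl 0, with a difference between whorls of 0.61, against 2.14 in May. It was highest in November Whorl 3, at 0.35, 0.42 and 0.23.

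Spot Q1D18 came next, with an excess of 1.39. It gave -0.18, -0.17 and -0.13 in May Whorl 0, against -1.23, -0.81 and -1.44 in Whorl 1, -1.75, -1.93 and -1.70 in Whorl 2 and -1.68, -1.81 and -1.56 in Whorl 3. By July the new needles were as low as the old ones, at -1.56, -1.48 and -1.78 in Whorl 0, with a difference of -0.01. Its replicates were close in May Whorl 0 and further apart in January Whorl 3, at 1.13, -0.09 and -0.06.

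The spots most typical of the set combined a low spring in the older needles with a high September in all needles. Spot Q8P3 followed the mean profile of the members most closely, with a correlation of 0.94 over the 22 group means. It gave 0.51, 0.52 and 0.47 in May Whorl 0, against -0.63, -0.43 and -0.38 in Whorl 1, -0.50, -0.53 and -0.46 in Whorl 2 and -0.60, -0.48 and -0.46 in Whorl 3. In September it was higher still, at 0.85, 0.73 and 0.59 in Whorl 0 and at 0.78, 0.52 and 0.49 in Whorl 1.

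Spot Q22M5 had the same correlation to 2 decimals, 0.94. It gave 0.77, 0.62 and 0.66 in May Whorl 0, against -0.69, -0.49 and -0.62 in Whorl 1, -0.67, -0.61 and -0.55 in Whorl 2 and -0.63, -0.81 and -0.55 in Whorl 3. Its July values were 0.05, 0.29 and 0.27 in Whorl 0, above those of Whorl 1 (-0.55, -0.45 and -0.27). In Whorl 3 July gave 0.14, -0.11 and -0.21, which overlapped with Whorl 0. Its September arrays lay between 0.23 and 0.92 and its November arrays between -0.15 and 0.22.

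**Figure D3:**
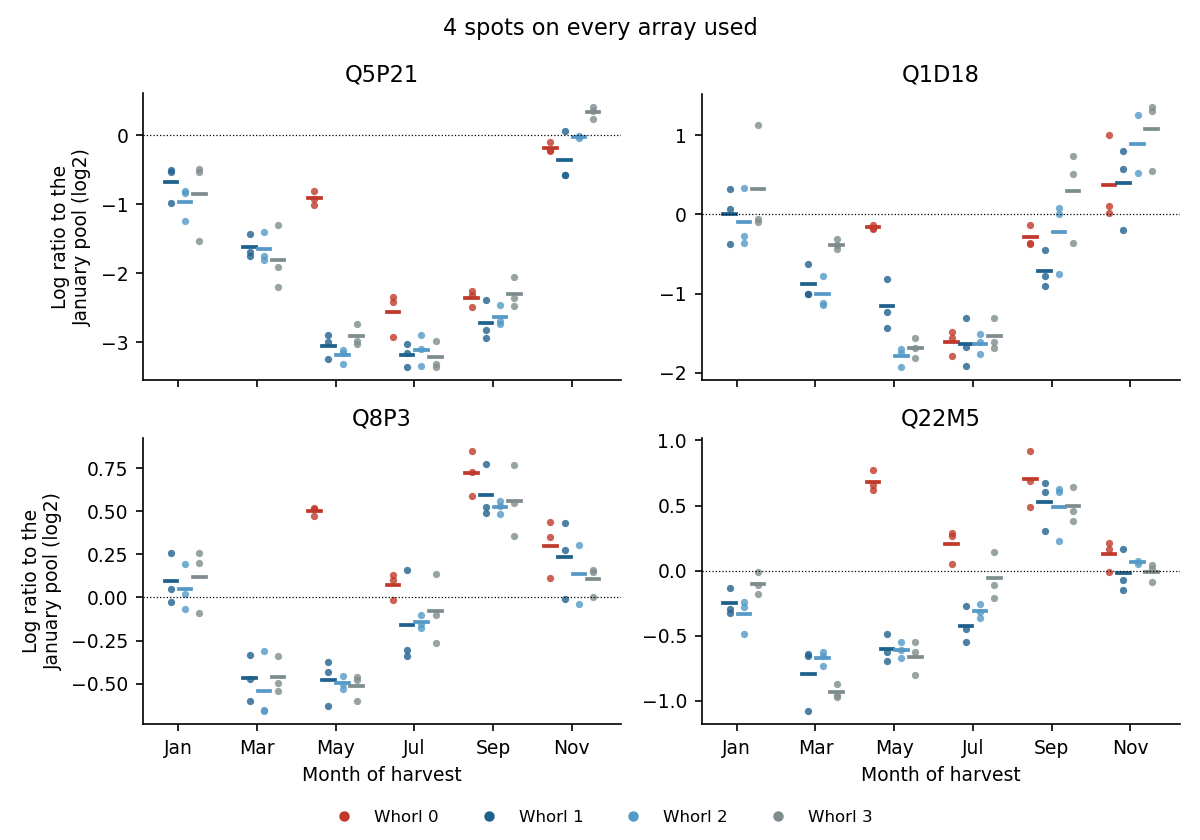
Points are the log ratios (log2) of 4 spots on the single arrays by month and whorl, and bars are group means. Q5P21 and Q1D18, with the largest excess, sit below the January pool in May Whorl 0, while Q8P3 and Q22M5, the most typical spots, sit at 0.47 to 0.77 there, above all 9 older May arrays.

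At the threshold the values ran on without a gap. The last spots inside were Q21H15, with an excess of 0.478, and Q11K11, with 0.477. The first spots outside were Q15A10, with 0.476, and Q2N14, with 0.475. Q21H15 had May Whorl 0 values of -0.18, -0.20 and -0.15, against -0.74, -0.75 and -0.69 in Whorl 1, and replicate 3 of Whorl 2 and of Whorl 3 came close to the new needles at -0.27 and -0.22. Q11K11 overlapped more, with 0.27, 0.41 and 0.29 in May Whorl 0 and 0.14, 0.40 and 0.31 in Whorl 1, and its difference came from Whorls 2 and 3. Of 974 spots with gaps but at least 2 values in every group from May to November, 23 had an excess above that of the last member and could not be chosen.

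The members fell into 3 classes by their July difference. In 20 members it was still at least 0.5, with medians of 1.48 in May and 0.68 in July. In 126 members it was within 0.5 of 0, with medians of 0.88 in May and 0.13 in July. In 4 members Whorl 0 had turned lower than the older needles by at least 0.5 in July, and there the older needles were high, with a median level of 0.17 in July Whorl 0, against 0.73 in Whorls 1 to 3. Whorl 0 was lower than the older needles by at least 0.5 in 8 members in September and in 4 in November. The highest of the later differences was that of July in 79 members, September in 38 and November in 33. A large May difference alone did not make a member. The 75 members at or above the members' median May difference had medians of 1.12 in May and 0.36 in July. The 103 other spots with as large a May difference had medians of 1.18 and 1.03. The rule subtracts the later differences, so this contrast in July follows from the choice and is only a description.

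The members differed in how closely they kept to one course over the year. The correlation of a member's 22 group means with the mean profile, to which each member contributes, had a median of 0.75 and ran from -0.04 to 0.94, with 57 members at 0.8 or more and 13 under 0.3. Over the 65 arrays, which share the months and the reference pool, the 11175 pairs of members had a median correlation of 0.41. It exceeded 0.9 in 188 pairs and 0.95 in 29. The pairs above 0.9 joined 83 members, 39 of them in 1 linked set. The 39 linked spots had a median level of 0.60 over the September groups, against 0.18 in the other 111 members, and of 0.68 in May Whorl 0, against 0.56. The files do not say whether different spots carry the same transcript, so the 150 spots cannot be counted as 150 genes.

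Spot names starting with Q7 and Q22 were more frequent among the members than their number on the array would give. Of 187 spots beginning with Q7 that could be chosen, 21 were members (11.2%), and of 45 beginning with Q22, 7 were (15.6%), while Q1 gave 1 of 182 and Q15 2 of 317. The share over all names was 2.59%. The sources do not state what the first part of a name stands for, and its part in the pattern was not tested.

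The May difference was looked at again in the replicate left out of a new choice. The 150 spots were chosen anew from 2 of the 3 replicates, and their May difference was read in the remaining replicate. Without replicate 1, 130 of the members were chosen again, and in replicate 1 all 150 chosen spots had Whorl 0 above the older needles, with a median of 0.95 and a lowest value of 0.28. In replicate 2, 149 of the 150 spots chosen without it were above 0, with a median of 0.92 and a lowest value of -0.12. In replicate 3 all 150 were above 0, with a median of 0.83 and a lowest value of 0.08. Of all spots, 44.9%, 44.4% and 44.8% were above 0 in replicates 1, 2 and 3. The excess itself was above 0 in the replicate left out for 150, 146 and 148 of the spots, against 31.9%, 30.2% and 28.5% of all spots. Its medians there were 0.65, 0.54 and 0.55. All 3 replicates entered the choice of the members and were normalized together. These values therefore describe how steady the choice was between pools and are no independent support for it.

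**Figure D4:**
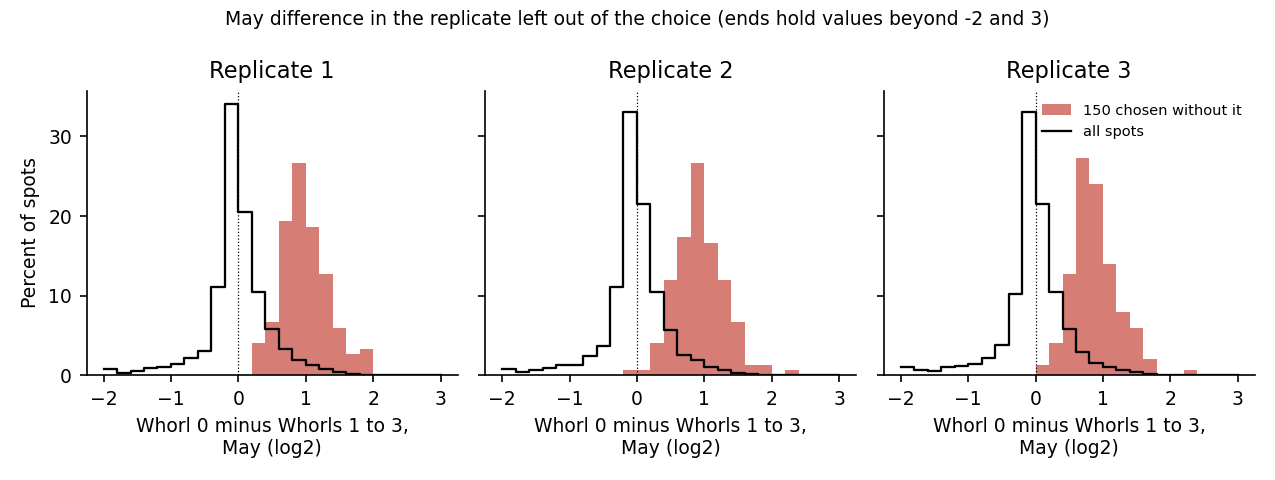
For each replicate, bars give the percent of the 150 spots chosen without it, and the line the percent of all spots, by their May difference of Whorl 0 minus Whorls 1 to 3 in that replicate (log2). The chosen spots have medians of 0.95, 0.92 and 0.83, and 1 of them in replicate 2 lies below 0.

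The arrays of January and March took no part in the choice, and there was no Whorl 0 in those months. The same older whorls did enter the choice through May, where their mean lay below 0 in 129 members, and the reference pool was of January. How far a March level below January follows from this was not tested. The members' older needles were clearly lower in March than in January. In limma with Benjamini-Hochberg adjusted p under 0.05 over all 7762 spots tested, 105 of 150 members (70%) fell and 10 rose, where 16.1% of all spots tested fell and 15.5% rose. This test took the whorls of a pool as independent, and a fit on means of the whorls of a pool is given further below. The members' median difference was -0.43, a March level of 0.74 times that of January if the values are log2, and the median of all spots was -0.01. Of the 105 members that fell, 61 were lower in March by at least 0.5 and 5 by at least 1. Without replicate 1 the counts were 90 lower and 2 higher, and without replicate 2 they were 100 lower and 3 higher. Over all spots, the alternative settings called 1330 to 3180 in either direction, against 2450 in the main fit.

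The fall was found in each whorl and in each replicate number, taken here as a pool of trees. Tested whorl by whorl, 81 members fell and 7 rose in Whorl 1, with a median of -0.39, where 10.2% and 10.5% of all spots did. In Whorl 2, 72 fell and 0 rose in limma, with a median of -0.40, where 3.84% of all spots fell and 1.5% rose. At an unadjusted p under 0.05, 96 members were past the threshold in Whorl 2 in either direction, against 1370 of all 7780 spots tested. In Whorl 3, 82 fell and 1 rose, with a median of -0.46, where 5.9% of all spots fell and 4.17% rose. Within replicates 1, 2 and 3 the members' median March minus January difference was -0.52, -0.32 and -0.39, and 129, 124 and 133 members were below 0, against 50.8%, 56.1% and 50.6% of all spots. In 60 members (40%) all 9 March arrays lay below all 9 January arrays, which held for 3.92% of all spots with a value on every array, and in 0 members all lay above.

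**Figure D5:**
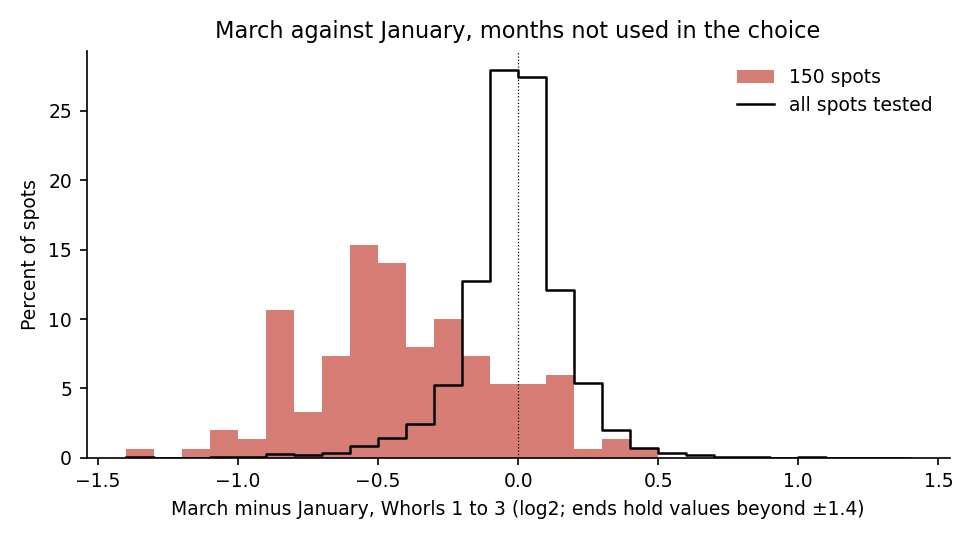
Bars give the percent of the 150 spots and the line the percent of all 7762 spots tested by the March minus January difference of Whorls 1 to 3 (log2). The 150 spots centre on -0.43 and all spots on -0.01.

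Among the members, Q17C2 and Q13B24 fell most in March. Q17C2 gave 0.04, -0.32 and -0.03 in March Whorl 1, -0.43, -0.43 and -0.58 in Whorl 2 and -0.41, -0.64 and -0.31 in Whorl 3. In January it gave 1.18, 1.16 and 0.97 in Whorl 1, 1.00, 1.11 and 0.91 in Whorl 2 and 0.73, 1.09 and 0.72 in Whorl 3. All January arrays lay above all March arrays, and the difference was -1.33 ± 0.07 (SE, limma adjusted p = 1.7e-20). Q13B24 gave between -1.37 and -0.57 on the 9 March arrays, against -0.54 to 0.58 on the 9 January arrays, with all March arrays below all January arrays, and its difference was -1.13 ± 0.15 (limma adjusted p = 8.4e-08). Q17C2 had been well above the January pool in January, with a mean of 0.99 over the 9 arrays. A January mean of at least 0.5 away from 0 was found in 13 members (8.67%), against 2.13% of the spots that could be chosen.

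The 10 members that were higher in March had small differences. The highest, Q7K5, rose by 0.40 ± 0.13 (limma adjusted p = 0.015), with -0.17 to 0.82 on the March arrays and -0.50 to 0.39 on the January arrays, which overlapped. Q18K4 rose by 0.37 ± 0.09 (limma adjusted p = 0.0015). Neither passed the threshold without replicate 1 (adjusted p = 0.15 for Q7K5 and 0.096 for Q18K4) or without replicate 2 (0.26 and 0.062). The 4 leading and typical spots all fell: Q5P21 by 0.87 on the log2 scale, Q1D18 by 0.83, Q8P3 by 0.58 and Q22M5 by 0.57, with limma adjusted p from 1.7e-09 to 7.1e-05. By July class, 10 of the 20 members still higher in July fell in March, 92 of the 126 within 0.5 and 3 of the 4 that had turned lower. In the linked set of 39 spots, 38 fell and 0 rose, with a median of -0.55, against 67 and 10 of the other 111 members with a median of -0.37. January and March arrays entered the correlation that joined the linked set, so that count is no independent result.

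Between whorls within January and March, the shares of members called lay near those of all spots. In January, 3 members (2%) were called higher in Whorl 1 than in Whorls 2 and 3 and 4 (2.67%) lower, where 2.33% of all 7772 spots tested were higher and 4.97% lower. At an unadjusted p under 0.05, 21 members passed, against 1652 of all 7772 spots tested. The median difference over the members was 0.0012. Q7J5 was higher in January Whorl 1, at 1.06, 0.54 and 0.94, than in Whorl 2 (0.38, 0.22 and 0.34) and Whorl 3 (0.01, 0.09 and 0.06), by 0.66 ± 0.13 (limma adjusted p = 0.00087). Q2P3 was higher by 0.56 ± 0.13 (limma adjusted p = 0.0061). Q11N11 was lower by 0.57 on the log2 scale, at -0.70, -0.28 and -0.10 in Whorl 1, against 0.36, 0.39 and 0.49 in Whorl 2 and 0.05, -0.03 and 0.02 in Whorl 3 (limma adjusted p = 2e-04). Q19I18 had a difference of -0.35 ± 0.11 (limma adjusted p = 0.033). Leaving out replicate 1 left 1 call among the members and leaving out replicate 2 left 3. Without replicate 1 the adjusted p was 0.089 for Q7J5, 0.11 for Q2P3 and 0.15 for Q19I18.

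In March, 23 members passed at an unadjusted p under 0.05, against 816 of all 7792 spots tested. After adjustment in limma, 0.321% of all spots tested were higher in Whorl 1 than in Whorls 2 and 3 and 0.0513% lower. Among the members 1 was higher and 0 were lower. It was again Q2P3, at 0.24, 0.50 and 0.27 in Whorl 1, against -0.54, -0.19 and -0.16 in Whorl 2 and -0.18, -0.18 and -0.16 in Whorl 3, higher by 0.57 ± 0.13 (limma adjusted p = 0.040). It missed the threshold without any 1 of the replicates, with adjusted p of 0.23 without replicate 1, 0.23 without replicate 2 and 0.089 without replicate 3, so that no call was left without replicate 1 or 2. Q2P3 was thus above the older whorls in Whorl 1 on every array of both months. The change of the Whorl 1 difference from January to March itself passed the threshold in 0 members in limma, where 0.464% of all spots were called. At an unadjusted p under 0.05, 11 members passed, against 847 of all 7762 spots tested. At the adjusted threshold, 2 members passed with quantile normalization and 2 with a random block for the pool, and 1 with array weights.

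Between Whorl 3 and Whorl 2, over January and March together, 8 members (5.33%) were higher and 5 (3.33%) lower, where 5.16% of all spots tested were higher and 5.21% lower. At an unadjusted p under 0.05, 42 members passed, against 1876 of all 7767 spots tested. With array weights 37 members were called. Over all spots, the alternative settings called 212 to 1676, against 806 in the main fit, so that count is not read as particular to the members. Q2H12 was higher in Whorl 3 by 0.52 ± 0.15 (limma adjusted p = 0.016), with -0.15, -0.50 and 0.35 in January Whorl 3, against -0.70, -1.32 and -0.82 in Whorl 2. In March it gave -1.26, -0.88 and -0.73 in Whorl 3, against -1.05, -1.48 and -0.90 in Whorl 2, where the arrays overlapped. Q7B18 was higher by 0.40 ± 0.12 (limma adjusted p = 0.021). Q11K11 was lower by 0.48 on the log2 scale, at -0.20, -0.17 and -0.17 in January Whorl 3 and 0.12, 0.11 and 0.14 in March Whorl 3, against 0.37, 0.19 and 0.49 in January Whorl 2 and 0.66, 0.42 and 0.57 in March Whorl 2 (limma adjusted p = 1.7e-05). Q11N11 was lower by 0.42 on the log2 scale (limma adjusted p = 0.00062). Without replicate 1 there were 3 calls among the members and without replicate 2 there were 2. Q2H12 missed the threshold without replicate 2 (adjusted p = 0.22) and replicate 3 (0.077), and Q7B18 without replicate 1 (0.24) and replicate 2 (0.24).

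Of the 35 spots that the study names and that had a value on every array, 3 had an excess of May above that of the last member and were kept out by the rule alone. The spot described as a fatty acid/sphingolipid desaturase, Q11J18, had an excess of 0.82. Desaturases of this kind put double bonds into membrane lipids. Q11J18 gave -0.14, -0.12 and -0.17 in May Whorl 0, against -1.07, -1.90 and -1.49 in Whorl 1, between -2.03 and -1.90 in Whorl 2 and -1.84, -1.89 and -2.08 in Whorl 3. July Whorl 0 gave -1.60, -1.41 and -1.51 and still lay above the 9 older July arrays (-2.56 to -2.10), with a difference of 0.83, against 1.65 in May.

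Q12L10, described as a cold acclimation protein, a class known from tissues hardened against frost, had an excess of 0.67. It gave 0.45, 0.29 and 0.44 in May Whorl 0, against -0.46, -0.48 and -0.48 in Whorl 1, and the arrays of Whorls 2 and 3 lay between -0.43 and -0.23. Q2I24, which has no description, had an excess of 0.48, with -0.05, -0.01 and 0.06 in May Whorl 0, against -0.71, -0.77 and -0.74 in Whorl 1. In all of these the new needles of May were set apart from the older ones on every array.

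These 3 spots also fell in March, Q2I24 by 0.49 on the log2 scale, Q11J18 by 0.45 and Q12L10 by 0.26, with limma adjusted p from 1.2e-08 to 0.00023. Q11J18 missed the threshold without replicate 1 (adjusted p = 0.051) and with quantile normalization (0.072). Closest to the mean profile of the members among the named spots were an endoplasmin precursor (Q14J11, correlation 0.83 over 22 group means), a heat shock protein 70 (Q17J7, 0.79) and Q2I24 (0.77). Endoplasmin and heat shock protein 70 are chaperones that fold new proteins, the first of them in the endoplasmic reticulum. Q14J11 gave -0.01, 0.09 and 0.06 in May Whorl 0, against -0.62, -0.84 and -0.93 in Whorl 1, and fell by 0.37 on the log2 scale in March (limma adjusted p = 4.6e-05). Q17J7 gave 0.17, 0.14 and 0.34 in May Whorl 0, against -0.31, -0.39 and -0.32 in Whorl 1, and kept a difference of 0.62 in July, against 0.53 in May. Its March difference of -0.20 ± 0.10 did not pass (limma adjusted p = 0.11). Except for Q12L10, these spots belong to a list that the study drew up on these samples, so they are not independent evidence of a shared course.

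A list of 13 named spots covered cell wall and one-carbon enzymes, translation, auxin response and transcription factors, and left out the chaperone and desaturase spots described above. In May 12 of them could be tested, and Whorl 0 was higher in 3 and lower in 3, with a median difference of 0.10. These shares are near those of all spots tested, of which 26.7% were higher and 25.6% lower. Of the translation genes, the 40S ribosomal protein (Q17O7) was higher by 1.22 ± 0.17 (limma adjusted p = 2.2e-08), elongation factor 1-alpha (Q11E4), the carrier of charged tRNA in protein synthesis, had a difference of -0.38 ± 0.13 (adjusted p = 0.012), and initiation factor 4a (Q2A8), an RNA helicase, gave 0.11 ± 0.10. Of the cell wall genes, UDP-arabinose mutase (Q6B3), which supplies arabinose in the furanose form for wall polymers, had a difference of -0.25 ± 0.09 (adjusted p = 0.022). The pectin methylesterase-like protein (Q17N23), of a class that trims methyl groups from pectin, also had one of -0.25 ± 0.08 (adjusted p = 0.0062). Methylenetetrahydrofolate dehydrogenase (Q10D23), of one-carbon metabolism, gave -0.03 ± 0.11, and Q1E13 was not tested for lack of values.

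Of the transcription factors, 1 R2R3-Myb spot (Q11F13) was higher by 0.41 ± 0.07 (limma adjusted p = 6.2e-07), while the other R2R3-Myb spot (Q16P17) gave -0.03 ± 0.06, Myb5 (Q7N23) 0.10 ± 0.11 and the AP2 ERF protein (Q11C18) 0.21 ± 0.10, none of which passed. Of the auxin-responsive proteins, Q1J15 was higher by 0.23 ± 0.09 (limma adjusted p = 0.024) and Q5C1 gave 0.10 ± 0.14. The call of Q1J15 was lost, and its sign turned, with quantile normalization (-0.14, limma adjusted p = 0.23). Without replicate 3, the calls of Q11E4, Q17N23, Q6B3 and Q1J15 were lost, which left 2 spots, and without replicate 2 those of Q11E4, Q17N23 and Q6B3, which left 3.

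The listed spots were also tested for a change of the Whorl 0 difference through the year and for March against January. The Whorl 0 difference of May was larger than the mean of the later months in 0 of 11 spots tested in limma (1 at an unadjusted p under 0.05) and smaller in 2, where 17.7% of all spots tested had a larger and 16.1% a smaller one. These were Q16P17 (-0.44 ± 0.07, limma adjusted p = 5.2e-06) and Q17N23 (-0.26 ± 0.09, adjusted p = 0.020). In March, 5 of 12 were higher than in January and 1 lower, where 15.5% of all spots tested were higher and 16.1% lower. The auxin-responsive spots Q5C1 and Q1J15 were higher in March by 1.01 ± 0.10 and 0.77 ± 0.06 (limma adjusted p = 1.1e-10 and 1.4e-13).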

How the data were processed

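The deposited values are log ratios of Cy3 over Cy5 signal on a cDNA array of 8208 spots. The authors normalized them across arrays with BABAR, an R package made for designs with a common reference. The deposited values entered every step unchanged and were taken as log2. Scanner intensities were not used here. The median of every array is 0 and the values run from -4.49 to 6.41. The sign was taken from the 10 of 10 spots of the study's list for whorl that decline with whorl number. A month field of the reference channel disagrees with its January source in most labels, and January was taken.

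The limma package (3.58.1, R 4.3.3) fitted 22 group means to 65 arrays and gave moderated, two-sided tests with Benjamini-Hochberg adjusted p under 0.05 over all spots tested. The main fit had no term for the pool of trees. Spots entered a test if a share of 0.5 of the arrays or more, and every group compared, had a value. Replicate 2 of November Whorl 2 was dropped, as in the study's network analysis. May to November values of the members were described without a test, since they chose the members. Other values were computed in Python 3.11.15 with numpy 2.4.6, pandas 2.3.3 and scipy 1.17.1. The limma step was tested on simulated data with independent arrays, so that check does not cover the correlation between whorls of a pool.

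The members and lists were chosen with earlier results of these data known. Named spots are those with the largest excess, the most typical, those at the threshold, at most 2 higher and 2 lower in each January or March test, and described spots on growth, closest to the mean profile or above the last member's excess. A caption in the paper ties a replicate number to an individual, so the numbers were taken to pair the samples. Deviations from group means correlated at 0.279 on average for arrays that share a number and month (87 pairs, 68 above 0.1, lowest -0.29). The mean of -0.139 between different numbers follows largely from taking deviations from the mean of the same replicates. It is no second observation. Alternatives were quantile normalization, other spot filters, the dropped array, only the groups compared, array weights, replicate blocks and leaving out each replicate.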

Additional observations from a re-analysis of the deposited data

Results flagged for a closer look

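The Whorl 0 difference of an R2R3-Myb spot named by the study (Q16P17) was smaller in May than in the mean of July, September and November by a test of the difference itself, at -0.44 ± 0.07 (SE, limma adjusted p = 5.2e-06). That of the pectin methylesterase-like spot (Q17N23) was smaller in May by the same test, at -0.26 ± 0.09 (limma adjusted p = 0.020), and missed the threshold without replicate 2 (adjusted p = 0.18) and without replicate 3 (adjusted p = 0.080).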

How the results depend on the processing

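The March fall of the members kept its direction under every setting run, with 90 to 112 members lower, 2 to 12 higher and a median from -0.47 to -0.37. Leaving out 1 replicate gave 92 to 112 members called in either direction, against 115. The calls between older whorls depended on the setting. So did those over all spots, whose ranges are given below, and the counts of members are not read apart from them. Members called between Whorl 1 and Whorls 2 and 3 numbered 7 in January, but 15 with array weights, 14 with a random replicate block for the pool of trees within a month, and 1 to 6 without 1 replicate. In March they numbered 1, but 2 with only the arrays compared, 3 with array weights, 4 with the random block, and 0 to 1 without 1 replicate. Between Whorl 3 and Whorl 2 they numbered 13, but 21 with quantile normalization, 37 with array weights, 28 with the random block, and 2 to 18 without 1 replicate. The change of the Whorl 1 difference gave 0 members, but 2 with quantile normalization, 1 with array weights and 2 with the random block. Of the 13 named spots on cell wall, translation, auxin and transcription factors, 6 were called in May, and 2 to 4 without 1 replicate. In May against the later months 2 were called, but 5 with array weights, 4 with the random block, and 1 to 2 without 1 replicate. With quantile normalization Q1J15 in May turned to -0.14, and the median May difference of the members was 0.73 in place of 0.92. The choice gave 98 of the members again with the mean of the later months, 90 when divided by the standard error, 110 with quantile normalization, 126 with group medians and 129 to 130 without 1 replicate.

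With the replicate number as a fixed block, 119 members were called in March against January, 9 in the January and 1 in the March comparison of Whorl 1, and 19 between Whorl 3 and Whorl 2. This block changed no other count of members by more than 1.5 times. The random block and a fit on means of the whorls of a pool (103 members called in March against January) were chosen after the data were seen. Over all spots, the counts called ranged from 120 to 1067 in January (567), 3 to 110 in March (29), 212 to 1676 between Whorl 3 and Whorl 2 (806), 1330 to 3180 in March against January (2450) and 0 to 118 for the change of the Whorl 1 difference (36). They ranged from 2884 to 5335 in May (4054) and from 1571 to 3535 in May against the later months (2431). Of the values of single spots under the alternatives, 33 lost a call, 12 gained one and 1 turned its sign with a call before or after. The other 455 kept their side of the threshold. Turns of sign between values without a call are among these 455 and were not counted. The causes were not tested.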

Other observations

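The array not used in any comparison, November Whorl 2 replicate 2, had a value for all 150 members. Their median on it was 0.28, with 41 members at 0.5 or more and 6.58% of all spots with a value on the other arrays at 0.5 or more. On replicates 1 and 3 of the same group the members' medians were 0.02 and -0.03, with 12 and 15 members and 1.58% and 3.06% of all spots at 0.5 or more.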
